A study of Mus musculus with 2 samples.

Results

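The genes described here encode 9 RNA-binding proteins of the germ line: Nanos1, Nanos2, Nanos3, Dnd1, Dazl, Ddx4, Elavl2, Lin28a and Trim71. The H3K4me3 peaks that overlapped their bodies or the 10 kb either side were taken, which gave 40 of the 135064 peaks in the list, with at least 1 peak for each gene. The peaks come from 1 CUT&RUN library of Oct-GFP+ prospermatogonia, which are fetal male germ cells, sorted fresh from mice at E17.5, with 130000 cells in the assay. An IgG library of the same kind of cells was made, and its own values were not used here. Whether the authors' peak calls used it as a control could not be checked, so the source library of the local background is unknown. There are no replicates and no second condition, so there is no test between groups, and the intervals given cover counting error only. The labels give no strain and do not say which promoter drives the reporter.

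H3K4me3 is a histone mark found at the starts of active and poised genes, and in mammals it is closely tied to promoters rich in CpG dinucleotides. RNA-binding proteins are central to germ cells, where stored mRNAs are silenced, translated or degraded on a schedule that transcription alone does not set. In the fetal testis NANOS2 and DND1 act together to bring the CCR4-NOT deadenylase to mRNAs, DAZL controls the translation of its targets, and DDX4 works in the germ granules where piRNAs are made. LIN28A blocks the maturation of let-7 microRNAs, and Trim71 is a classical let-7 target.

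The promoters of Ddx4 and Dazl, which had peaks, and of Nanos2 and Nanos3, where no peak was called, are shown because they differ in CpG content. Each is the 250 bases before the start site, taken from RefSeq (GRCm38.p6, the same build as mm10) and printed on the gene's own strand with CpG dinucleotides in capitals. They lie at chr13:112652311-112652560 on the minus strand for Ddx4, chr17:50293621-50293870 on the minus strand for Dazl, chr7:18987274-18987523 on the plus strand for Nanos2 and chr8:84176553-84176802 on the minus strand for Nanos3.
Ddx4: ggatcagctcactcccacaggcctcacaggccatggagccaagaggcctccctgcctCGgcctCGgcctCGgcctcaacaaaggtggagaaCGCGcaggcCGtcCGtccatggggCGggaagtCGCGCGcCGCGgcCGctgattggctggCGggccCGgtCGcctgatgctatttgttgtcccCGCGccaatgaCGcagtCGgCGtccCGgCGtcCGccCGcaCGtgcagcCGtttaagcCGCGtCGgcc
Dazl: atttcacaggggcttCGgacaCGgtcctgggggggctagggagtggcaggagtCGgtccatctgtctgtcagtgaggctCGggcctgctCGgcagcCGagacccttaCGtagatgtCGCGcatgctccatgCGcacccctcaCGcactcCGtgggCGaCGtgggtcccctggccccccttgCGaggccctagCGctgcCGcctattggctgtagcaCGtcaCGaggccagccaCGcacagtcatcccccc
Nanos2: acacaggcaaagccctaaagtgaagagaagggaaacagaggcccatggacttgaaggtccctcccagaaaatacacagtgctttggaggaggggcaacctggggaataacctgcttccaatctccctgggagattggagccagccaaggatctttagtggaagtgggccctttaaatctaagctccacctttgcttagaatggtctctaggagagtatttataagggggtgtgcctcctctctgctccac
Nanos3: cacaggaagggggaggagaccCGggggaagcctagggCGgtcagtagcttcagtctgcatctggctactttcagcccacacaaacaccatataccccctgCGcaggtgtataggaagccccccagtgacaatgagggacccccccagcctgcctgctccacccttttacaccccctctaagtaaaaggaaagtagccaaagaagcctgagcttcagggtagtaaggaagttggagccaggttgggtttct
The stretch of Ddx4 holds 31 CpGs and that of Dazl 20, against 3 in Nanos3 and 0 in Nanos2. Peaks covered all 250 bases at Dazl, 91 at Ddx4, and 0 at both Nanos2 and Nanos3.

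Of the 9 genes, 7 had a peak within 1 kb of an annotated end (77.8%), and each of these 7 was marked at a single end. This is close to all protein-coding genes, of which 74.5% had such a peak and 13.8% had one at both ends. The RefSeq start sites used here covered 8 of the 9 genes, all but Dnd1, and 17492 of the 21887 protein-coding genes. They held none on chromosome 18, where Dnd1 lies. Of these 8 genes, 6 had a peak within 1 kb of a start, against 73.3% of all protein-coding genes with a listed start. The 2 genes without a peak at an end or start were Nanos2 and Nanos3. These 8 genes have 13 listed start sites, of which 8 lay in a peak, against 56.8% of all listed start sites. Of the 11 with a peak within 1 kb, those 8 lay in it, against 79.5% over all such starts. Of the 40 peaks, 15 lay inside a gene, 6 ran across an annotated end and 19 lay in the flanks, and 33 had one of the 9 genes as their nearest protein-coding gene end. Having a peak somewhere in the body or flanks says little by itself, since 92.2% of all protein-coding genes met this condition. The peak closest to the 10 kb limit on the inner side began 9983 bp from Nanos3, with a pileup of 36 fragments, and the first on the outer side ended 10491 bp from Nanos2, with 31.

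**Figure D1:**
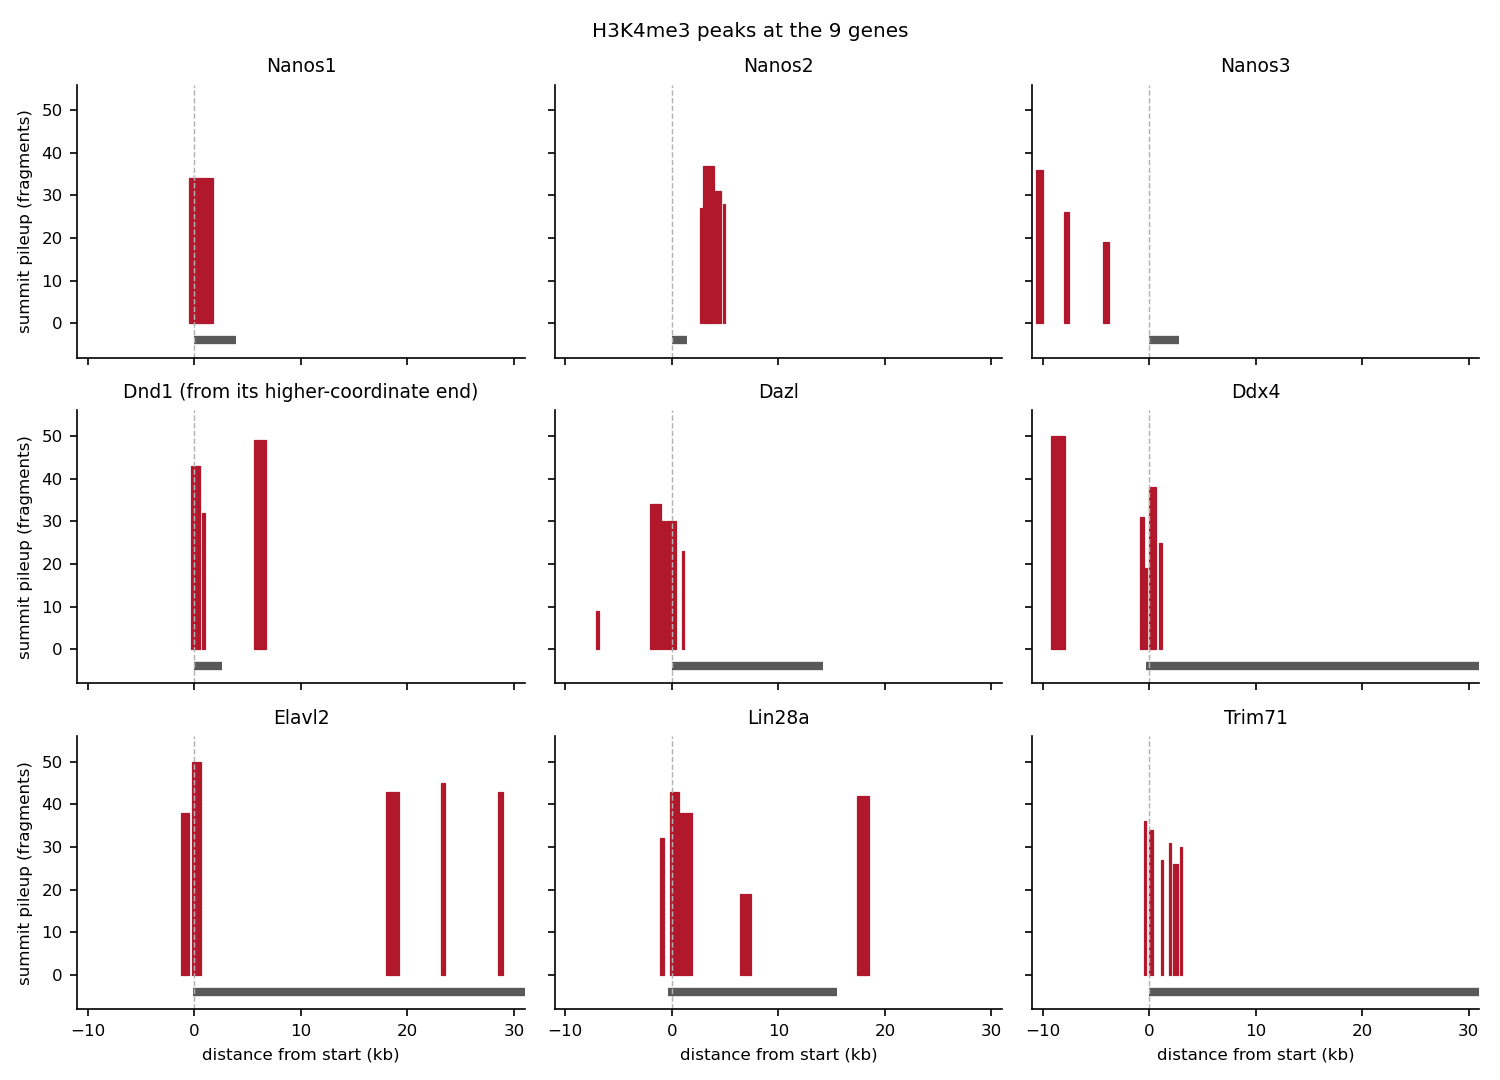
Each panel plots the peaks of a gene by distance from its most upstream listed start site (kb, positive into the gene) against summit pileup (fragments); red bars span the peaks, the grey bar is the gene body and the dashed line is the start. Dnd1 is drawn from its higher-coordinate end, and a peak of Ddx4 and a peak of Elavl2 beyond their far ends fall outside the axis; peaks stand at the start in every panel but those of Nanos2 and Nanos3.

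Values of a peak are given as the summit pileup, which is the number of fragments stacked at the highest point, and as the fold enrichment, which is that pileup plus 1 over the local background plus 1. The fold thus sets a summit against its local background, so a high fold can rest on few fragments.

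The Nanos family, zinc finger proteins that repress mRNAs, split by member. Nanos1, which is dispensable for fertility in mice, had a single broad peak of 2259 bp on chromosome 19 from 60755515 to 60757773. It ran over the start and well into the gene, and was wider than nearly all gene-end peaks, at percentile 99.4 of the 22985 peaks within 1 kb of a protein-coding gene end. Its pileup of 34 fragments (95% Poisson interval 23.5 to 47.5) and fold of 4.14 (2.90 to 5.74) stood lower, at percentiles 34.8 and 25.7 of the same peaks. The summit was 1224 bp inside the gene, so with the summit required inside the 1 kb window Nanos1 would not count as marked, and 6 of the 9 genes would.

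Nanos2, which directs germ cells of the fetal testis onto the male path, had no peak over its gene of 1439 bp on chromosome 7. The nearest peak lay beyond the higher-coordinate end, the 3′ end of this plus-strand gene, and began 2619 bp from the start. This was the first of 4 neighbouring peaks between 18990143 and 18992528, with pileups of 27, 37, 31 and 28 fragments and folds of 3.07, 4.08, 3.41 and 2.88. All 4 had Mypop, the next gene, as their nearest protein-coding gene end, with summits 1024, 550, 481 and 1150 bp from it. The first 2 began 1181 and 1500 bp from the gene, so with a window of 2500 bp in place of 1000 bp Nanos2 would count as marked at an end.

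Nanos3, which is needed for the survival of primordial germ cells, also had no peak over its body of 2820 bp on chromosome 8. Its 3 peaks lay upstream, with summits at -4242, -7724 and -10192 bp from the start, where negative positions come before the start. Their pileups were 19, 26 and 36 fragments, with folds of 3.59 (2.23 to 5.51), 3.03 (2.02 to 4.39) and 4.53 (3.21 to 6.22). Nanos3 was the nearest protein-coding gene end of all 3, and the nearest annotated end of any kind was that of the microRNA gene Mir181c, 1833 bp from the first summit. No peak reached either end of the gene, and the nearest was 3735 bp away.

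Dnd1, which pairs with NANOS2 and whose loss leads to germ cell loss and testicular teratomas in mice, was marked at its higher-coordinate end on chromosome 18. A peak of 893 bp, from 36765692 to 36766584, ran across that end and held 43 fragments (31.1 to 57.9) and a fold of 6.01 (4.39 to 8.05). A second peak of 340 bp lay next to it inside the gene, with 32 fragments. The third peak, of 1212 bp and 49 fragments, was 3009 bp beyond the other end, and its summit was 17 bp from an end of Wdr55. A start site of Dnd1 was not used here, so both of its ends were treated alike.

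Dazl and Ddx4, the most widely used germ cell markers of the group, both had peaks in several pieces around the start. At Dazl, 4 peaks joined into a domain of 3147 bp on chromosome 17 from 50292493 to 50295639, and 74.8% of that length was covered by peaks. Of these, 3 had summits upstream of the start, at -285, -760 and -1128 bp, and the other was at 1098 bp inside the gene. Pileups were 30, 30, 34 and 23 fragments in that order, and folds were 3.60, 3.58, 4.09 and 2.78, so the pieces could not be told apart within their counting intervals. The highest of the 4 was also the farthest upstream, with an interval of 2.87 to 5.67 for its fold. A further peak of 213 bp lay 6879 bp upstream of the gene with 9 fragments, the lowest pileup of the 40.

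Ddx4, the mouse vasa gene, had 4 peaks in a domain of 2062 bp on chromosome 13 from 112651118 to 112653179. The strongest, of 649 bp with its summit at 387 bp inside the gene, had 38 fragments (26.9 to 52.2) and a fold of 7.21 (5.16 to 9.83), the highest fold at a start or end among the 9 genes. Upstream of the start stood peaks with summits at -291 and -585 bp, with 19 and 31 fragments, and inside the gene another at 943 bp with 25. The start base itself was in the strongest peak, which reached 13 bases upstream of it.

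Further peaks flanked Ddx4 at a distance. A peak of 918 bp lay 3162 bp beyond the far end, from 112594254 to 112595171, with a fold of 9.64 (6.56 to 13.7), the highest of the 40 peaks. It had only 29 fragments, over a background of 2.11, the lowest value in the list, which 41978 of the 135064 peaks shared. The summit of this peak lay in the pseudogene Gm3226. Another, of 1311 bp, lay 7548 bp upstream of the gene inside Slc38a9, an amino acid transporter gene, with 50 fragments and a fold of 7.40.

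Elavl2, of the Hu family that binds AU-rich sequences in mRNAs, has 6 listed start sites over 188576 bp of gene on chromosome 4, and all 6 had a peak within 1 kb. At the most upstream start lay a peak (841 bp, from 91399376 to 91400216) whose pileup was 50 fragments (37.1 to 65.9) and a fold of 5.24 (3.91 to 6.87). A second peak of 775 bp upstream of it had 38 fragments. The pair of starts in the middle were covered by a peak of 434 bp with 45 fragments, and the 3 most downstream starts had a peak of 467 bp with 43 fragments that did not reach the start bases. The folds of these internal peaks were only 2.54 (1.86 to 3.37) and 3.14 (2.29 to 4.20), beside backgrounds of 17.1 and 13 fragments. Their pileups stood at percentiles 79.4 and 71.9 of gene-end peaks and their folds at 1.78 and 8.87, so pileup and fold placed them in opposite parts of the list. A further internal peak of 1232 bp with 43 fragments had its summit at -4568 bp from the nearest listed start. The last of the 6 peaks of this region, of 183 bp, lay 7450 bp beyond the far end with 12 fragments (6.20 to 21.0).

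Lin28a and Trim71, both tied to let-7, had the mark spread over several peaks at the start. At Lin28a 3 peaks formed a domain of 2982 bp on chromosome 4 from 134016960 to 134019941, with summits at 975, 318 and -1013 bp. Their pileups were 38, 43 and 32 fragments and their folds 3.72, 4.19 and 3.09. A pair of peaks with 19 fragments each lay deeper in the gene, with summits at 6892 and 6559 bp and folds of 4.83 and 4.05. Both stood at percentile 5.57 of gene-end peaks by pileup, and at 39.2 and 24.1 by fold. The highest fold in the Lin28a region, 8.12 (5.90 to 10.9) with 42 fragments, was that of a peak 1850 bp beyond its far end, whose summit was 222 bp from an end of Dhdds.

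Trim71, an NHL-domain protein that represses mRNAs, had the widest domain of the 9 genes, 3515 bp on chromosome 9 from 114561304 to 114564818. It was made of 6 short peaks of 161 to 480 bp, and only 45.4% of its length was covered by peaks, against 74.8% at Dazl and 75.8% at both Ddx4 and Lin28a. The pileups ran from 26 to 36 fragments and the folds from 2.67 to 3.72. Peaks stood on both sides of the start, with summits at 127 bp inside the gene and at -376 bp, and the first of these reached 1 base upstream of the start. The other 4 peaks had summits from 1173 to 2991 bp inside the gene, and the rest of the gene of 53102 bp held no peak.

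**Figure D2:**
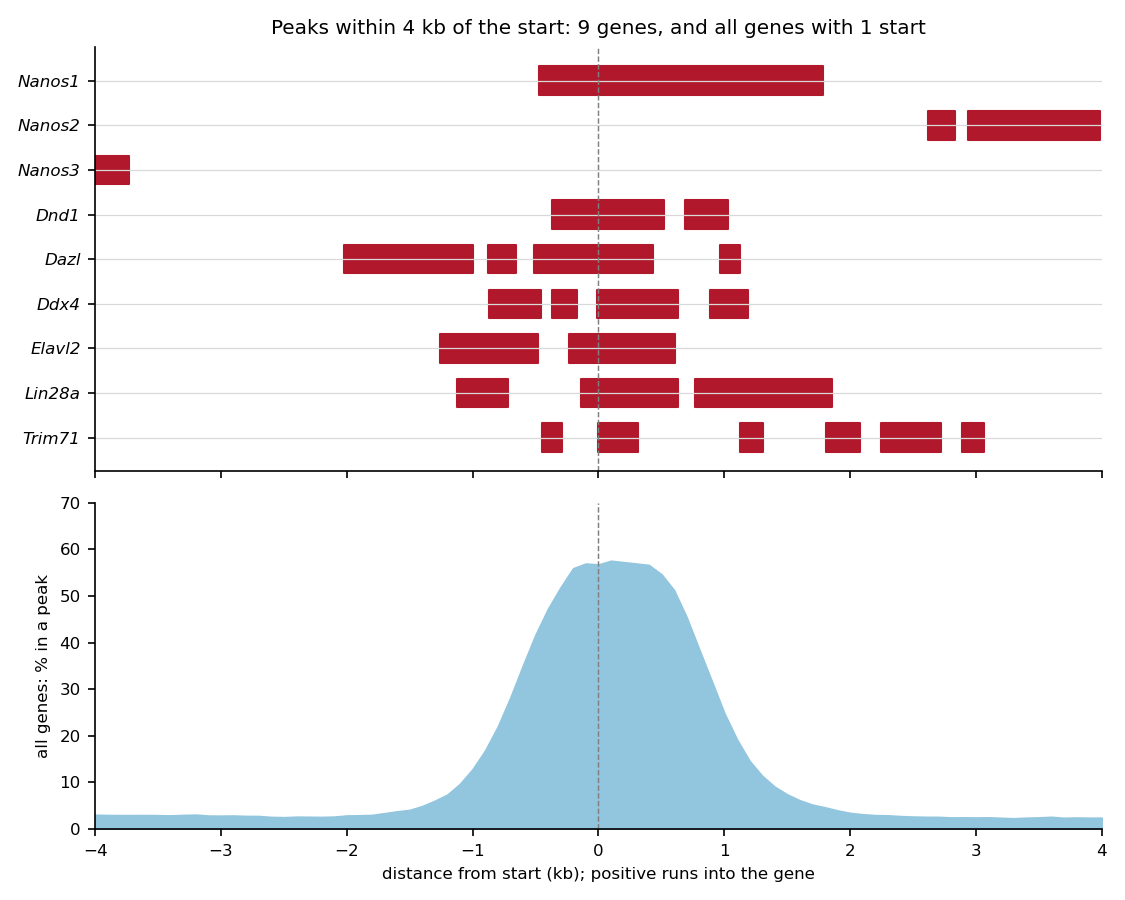
The upper rows plot, for each gene, the peaks (red blocks) within 4 kb of the start by distance (kb, positive into the gene; Dnd1 from its higher-coordinate end), and the lower panel plots the percentage of 14731 protein-coding genes with a single listed start that lie in a peak at each distance. Coverage over all genes reached 57.5% at 100 bp inside the gene, and every gene shown has a block reaching over 1 kb from the start.

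Set beside all marked genes, these genes had ordinary pileups and a lower median fold. The highest pileup at an end had a median of 38 fragments over the 7 marked members, from 34 to 50, against a median of 42 over all marked protein-coding genes. The central 90% of all marked genes ran from 23 to 54 fragments, and all 7 lay inside it. The highest fold at an end had a median of 4.19 over the 7, against 6.21 over all marked genes. All 7, from 3.72 to 7.21, lay inside the central 90% of folds too, which ran from 3.55 to 9.29. An end peak with a fold of at least 5 was found at 3 of the 9 genes, Dnd1, Ddx4 and Elavl2, against 57.4% of all protein-coding genes. The local background of the 16 end peaks of these genes had a median of 7.66 fragments, from 4.39 to 9.69, against 6.18 over all gene-end peaks. The part of that background in the lower folds was not tested.

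**Figure D3:**
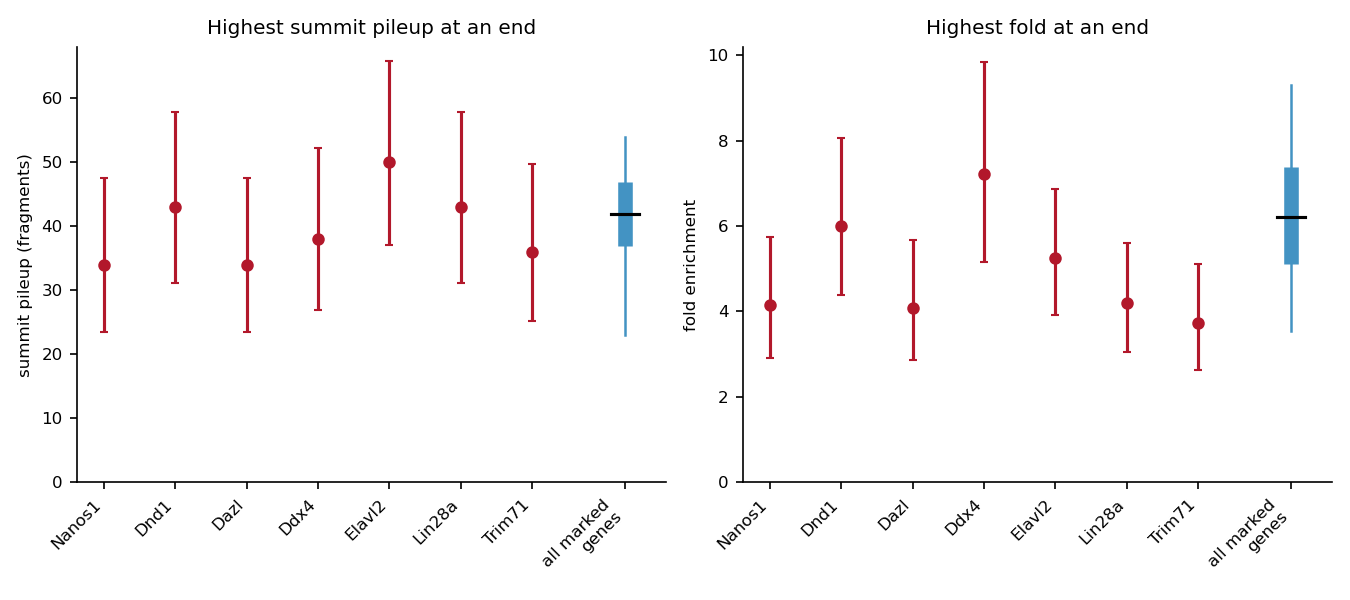
Points give the highest summit pileup (left, fragments) and the highest fold (right) at an annotated end of each marked gene, with 95% Poisson intervals; at the right of each panel, the line spans the 5th to 95th percentile of all marked protein-coding genes, the box the middle 50% and the black bar the median. Pileups lie from 34 to 50 beside a median of 42, and folds from 3.72 to 7.21 beside a median of 6.21.

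An end in a wide domain was found at 5 of the 9 genes, Nanos1, Dazl, Ddx4, Lin28a and Trim71, against 16.8% of all protein-coding genes. Domains were peaks joined over gaps of up to 1000 bp, and the widest 5%, those of at least 2002 bp, were called wide. The domain at Elavl2 measured 1867 bp and that at Dnd1 1402 bp, both under this limit. The count and its members depended on the joining. Without it, only the single peak of Nanos1 was wide, against 19% of all genes. With gaps of up to 500 bp the count was 4, namely Nanos1, Dazl, Ddx4 and Elavl2, against 18.2% of all genes. With gaps of up to 3000 bp it was 3, namely Dazl, Lin28a and Trim71, against 10% of all genes. Calling the widest 10% wide gave 6, with Elavl2 added to the reported genes, against 30.4% of all genes. Keeping only peaks with a −log10 q of at least 5 gave 4, namely Nanos1, Dazl, Ddx4 and Lin28a, so Trim71 dropped out. The share of all genes was not counted under that setting. With 9 genes and no test, the wide domains are a description of these loci.

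Promoter CpG content went with the presence of a called peak. In the RefSeq window of 300 bases, from 250 before to 50 after the start, Ddx4 held 38 CpGs, Nanos1 34, Dazl 28, Trim71 19 and Lin28a 10, and the windows of Elavl2 held 10 to 27. All of these had a peak within 1 kb. The windows without a peak, those of Nanos3 and Nanos2, held 3 and 0. Over all 21263 listed start sites of protein-coding genes, windows with a peak within 1 kb had a median of 19 CpGs and those without had 2. A peak was near 95.5% of starts with 10 to 14 CpGs (Wilson interval 94.5 to 96.3) and 99.7% of those with 30 or more (99.5 to 99.9), against 21.5% of those with 0 to 4 (20.5 to 22.6). Among windows with 0 CpGs, as at Nanos2, 11.6% had a peak near, and among those with 3, as at Nanos3, 29.2%. The 8 genes therefore fell where most promoters of their CpG content fell. G+C share was also lowest in the unmarked windows, at 55.3% in Nanos3 and 53% in Nanos2, but it set them apart only narrowly. The marked windows of the other 6 genes started at 56%, and the median over all windows was 56.3%.

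**Figure D4:**
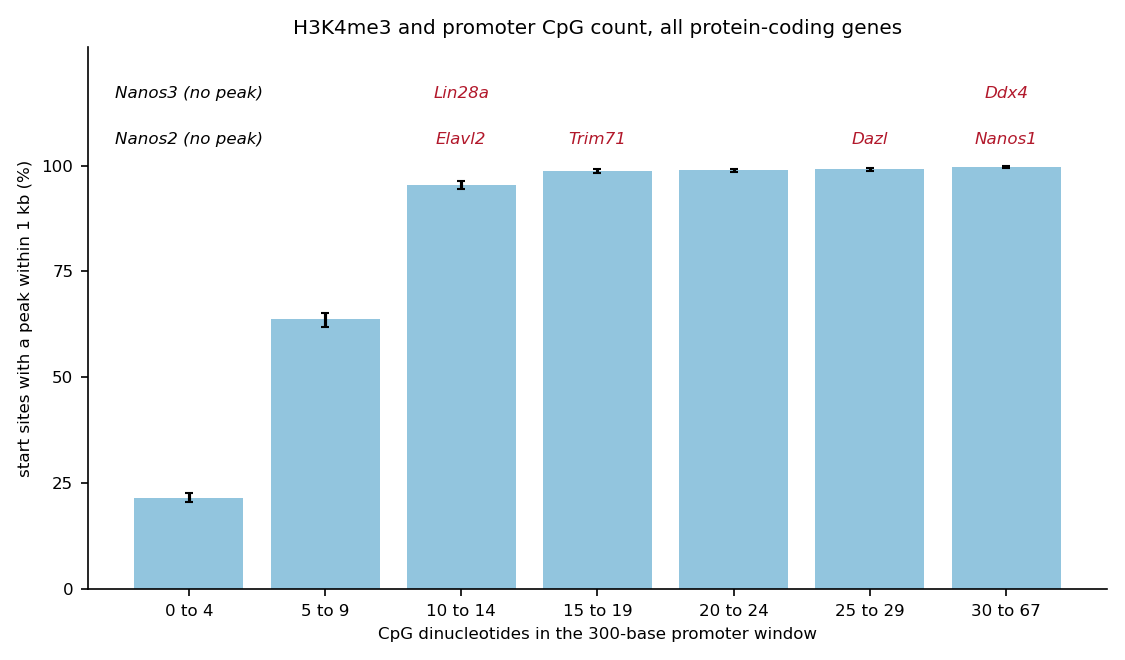
Bars give the percentage of protein-coding start sites with a peak within 1 kb, by the number of CpG dinucleotides in the 300-base promoter window, with 95% Wilson intervals; gene names stand above the bin of their window (Elavl2 by its most upstream start). Nanos2 and Nanos3, without a peak, stand in the bin of 0 to 4, where 21.5% of starts are marked, and the other 6 genes stand in bins of at least 95.5%.

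Letters of known factor sites were searched on both strands of these windows. The E-box letters CACGTG and the E2F-type letters GCGGGA mark many germ line gene promoters that MGA and E2F6 repress outside the germ line. Ddx4 held both, with CACGTG at position -29 and GCGGGA at -136. At Elavl2, GCGGGA was found at the 3 most downstream starts, whose windows overlap and share 1 match. Neither run of letters was in the windows of Nanos1, Nanos2, Nanos3, Dazl, Lin28a or Trim71. Of all windows 7.84% held CACGTG and 25.8% held GCGGGA, and 89.3% and 96.2% of these had a peak near.

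Genes that work with these proteins were marked in most cases. Over 6 lists of partners, paralogs and related RNA-binding proteins, 55 of 61 genes (90.2%) had a peak at an annotated end, against 74.5% of all protein-coding genes. The 6 without one were Cnot6l, Cnot7, Cnot8, Dis3l2, Ago3 and Trim2, and each held peaks inside the gene, from 1 in Ago3 to 8 in Trim2. All 50 genes of these lists with a listed start had a peak within 1 kb of it, a count made after the end counts were seen. Over all protein-coding genes with a listed start the share was 73.3%. Cnot6l, Cnot8, Dis3l2, Ago3 and Trim2 were among these 50.

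The CCR4-NOT complex, which shortens poly(A) tails and is recruited by NANOS2 and DND1, had 8 of 11 genes marked at an end. The highest folds were 7 at Cnot6, a catalytic subunit, and 6.18 at Cnot1, the scaffold. Both Pumilio family genes analysed were marked, with folds of 5.49 at Pum3 and 4.83 at Pum2. Of the 10 genes of mRNA decay and P-bodies all were marked, led by Edc4 at 9.85 and the decapping activator Dcp1a at 7.93. Their pileups were 49 fragments each.

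The let-7 and microRNA pathway had 10 of 12 genes marked, led by the argonaute gene Ago1 at a fold of 7.11 and by Tut7, which adds uridines to let-7 precursors bound by LIN28A, at 7.03. Among paralogs of the 9 genes 10 of 11 were marked, led by Elavl4 at 7.33 with 56 fragments and Trim32 at 7.25 with 50. Lin28a itself had a fold of 4.19 (3.06 to 5.61) with 43 fragments (31.1 to 57.9), against 5.43 with 35 at its paralog Lin28b. Both values of Lin28b lay inside these intervals, so the pair could not be ordered within counting error. All 15 other germ cell RNA-binding protein genes were marked, led by Rbm46 at 8.14 with 60 fragments and Ythdc2, a meiotic regulator, at 6.49 with 41. These lists are small, and counting only end peaks whose fold was 5 or more the total was 39 of 61, against 57.4% of all protein-coding genes, a smaller gap than without that threshold.

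**Figure D5:**
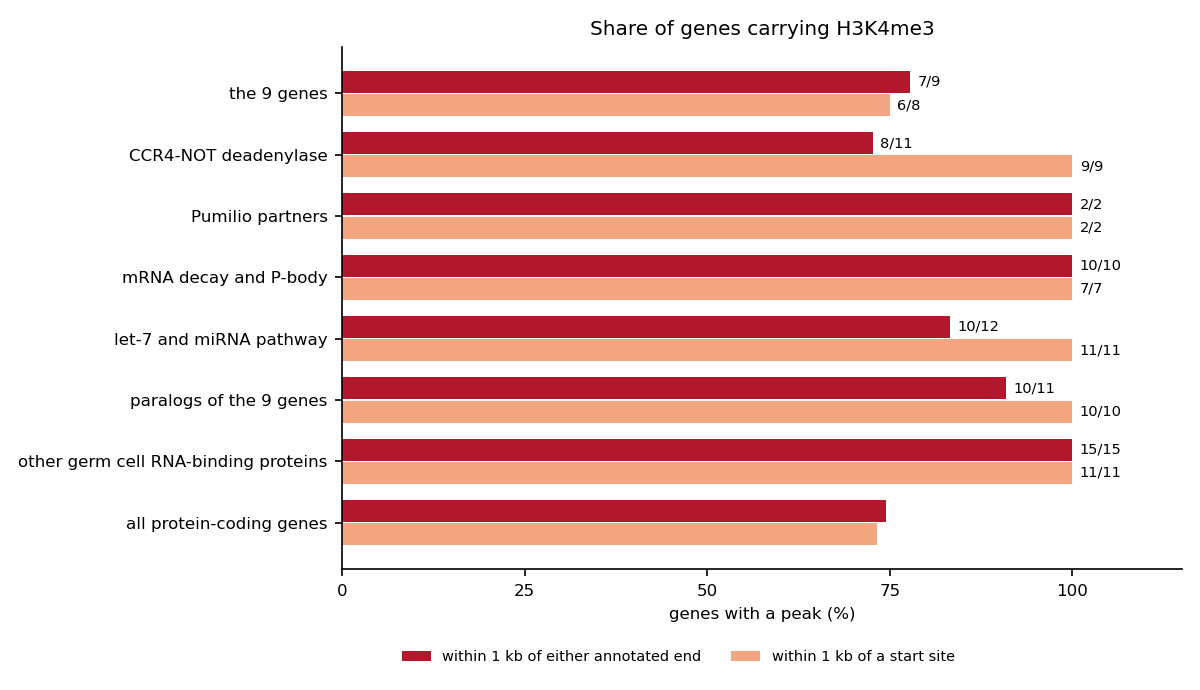
Bars give the percentage of genes with a peak within 1 kb of either annotated end (dark) and of a listed start site (light), for the 9 genes, the 6 lists and all protein-coding genes, with the counts beside them. The 9 genes, at 77.8% and 75%, stand near all protein-coding genes at 74.5% and 73.3%. The light bars count only genes with a listed start.

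The labelled cell type was set beside marker lists, read against the 74.5% of all protein-coding genes with a peak at an end. All 7 germ cell markers had one, 5 of 6 for Sertoli cells, 1 of 5 for Leydig cells, 1 of 3 for endothelium, 0 of 2 for macrophages and 2 of 2 for erythroid cells. The median fold of the marked genes was 5.17 for germ, 3.59 for Sertoli and 10.1 for erythroid cells, against 6.21 over all marked genes. The single marked genes of Leydig cells and endothelium had folds of 9.9 and 8.63, with 51 and 39 fragments. Median pileups were 37 for germ, 44 for Sertoli and 31.5 for erythroid cells. The lists are small and most protein-coding genes were marked, so the counts of marked genes do not by themselves check the label. At Pou5f1 the highest pileup at an end was 106 fragments, above the 95th percentile of all marked genes, 54. Its highest fold was 3.17, under their 5th percentile, 3.55. No other germ cell marker stood out by pileup: their highest pileups at an end ran from 32 to 46 fragments, with folds from 3.18 to 7.64. The high pileup of Pou5f1 is therefore a value of 1 gene and not of the list. The mark at a gene is not its expression, and the part of other cells in the peaks of the 9 genes was not tested.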

How the data were processed

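H3K4me3 CUT&RUN peaks of 1 library were analysed. Per the submitters' processing notes, the tools were bedtools 2.27.1, Bowtie2 2.5.0, deepTools 3.5.1, MACS2 2.1.0, SAMtools 1.16.1 and Trim Galore, and the builds mm10 and sacCer3. No label states which tool did what, or its settings. For every peak the authors deposited a fold, the ratio of summit pileup to a local background. Significances, as the −log10 of p and of q, were deposited too, with a score that restates the q. All are the authors' own values of single peaks and serve only to describe, rank and filter peaks within the list. It does not hold read depth.

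Pileup and background were recovered from the fold and −log10 p, as whole-number pileups up to 2000 with a Poisson tail, for 135053 peaks within 0.0001. Genes and start sites came from RefSeq GRCm38.p6. A gene was marked where a peak overlapped 1000 bp either side of an end or start, so an unmarked gene is one without a called peak there. Intervals are 95%, exact Poisson or Wilson, and cover counting error only. For a fold, the local background was held fixed, and the summit pileup was treated as a plain count though it is the highest point of its peak. Error from these 2 sources is not in the intervals. CUT&RUN fragments carry no molecular identifiers here. The 9 genes and the lists were chosen with earlier results of these data known. Named were the 9 genes, other genes nearest to their peaks and, per partner list, the 2 marked genes of highest fold and all unmarked ones. Lin28b and Pou5f1 were named after their values were seen, and marker lists are given as counts with the fold and pileup of their marked genes. A gene of these lists is not reported here. The scripts, in Python 3.11.15 with pandas 2.3.3 and scipy 1.17.1, were tested on simulated data. Alternatives changed windows, overlaps, thresholds and joining.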

Additional observations from a re-analysis of the deposited data

How the results depend on the processing

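Over 50 alternative values, 44 stayed within 1.5 times the reported count or, for folds, within the Poisson interval, and 6 did not. With a fold of at least 5, the genes marked at an end numbered 3, those marked at a start 2 and the peaks at these genes 8. The genes in wide domains numbered 1 without joining and 3 with a join gap of 3000 bp. The highest end fold of Lin28a was 8.12 within 2500 bp, where the peak next to Dhdds enters the window. With the summit required inside the window Nanos1 kept no end peak, so that alternative gave no fold and is not among the 50. Counts of genes marked at an end or start could not rise to 1.5 times the reported count, even with every gene marked. For those counts, a looser setting could therefore not have moved. The fold threshold and the joining rule set which peaks count, by construction; other causes were not tested. No paired analysis was possible because there is 1 H3K4me3 library. With 1 library, the spread between replicates is unknown, and depth cannot be read from the peak list.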

Other observations

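Beyond the 10 kb flanks, 18 further peaks lay between 10 and 20 kb from the 9 genes, with pileups of 24 to 57 fragments and folds of 2.90 to 16.8. The highest of these folds belonged to a peak on chromosome 13 from 112577834 to 112578775, which ended 19558 bp from Ddx4 and had 57 fragments. It was chosen after its value was seen, and it exceeds both the fold and the pileup of every peak within 10 kb of the 9 genes. Upstream of Trim71 no peak lay between its start domain and a group of 3 peaks that began 14209, 14506 and 14973 bp away, with 26, 26 and 33 fragments.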
